A study of Mus musculus with 4 samples.

Results

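The Kruppel-like factors described here are Klf2, Klf3, Klf4, Klf5, Klf6, Klf7, Klf10, Klf11, Klf13 and Klf15, measured in mouse embryonic fibroblasts with and without Med1, a subunit of the Mediator complex that links transcription factors to RNA polymerase II. Members were all probe sets of the array annotated to these 10 genes. This gave 9 of the 12393 genes on the array, with 20 of its 22626 probe sets besides controls. The tenth, Klf11, is not analysed here, since no probe set with a single gene symbol was annotated to it. A filter on the mean signal of all arrays left 18 of the 20 probe sets, of 8 genes, for testing. The 2 below it were the only probe set of Klf15 and the dimmest of 3 for Klf13.

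The fibroblasts were grown from E10.0 embryos of C57BL/6J mice in medium with fetal calf serum, and both genotypes also lacked p53. Per the labels, Med1+/+ p53-/- and Med1-/- p53-/- embryos came from 1 mating, of a Med1+/- p53-/- father and a Med1+/- p53+/- mother, and the labels name no promoter or Cre that would restrict the loss of Med1 to a cell type. Total RNA was hybridised to Affymetrix arrays, 2 for each genotype. Whether the 2 arrays of a genotype represent separate embryos or cultures is not said in the labels, and the spread behind each p-value may therefore be technical. Any difference between the embryos other than Med1 itself cannot be told apart from the genotype.

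Kruppel-like factors are transcription factors that bind GC-rich and CACCC sequences through zinc fingers at the C-terminal end of the protein, a domain they share with the Sp factors. Their N-terminal parts differ and set whether a member activates or represses. Klf3 recruits the corepressor CtBP. Klf2, Klf4, Klf5, Klf6 and Klf7 mostly act as activators, although Klf4 can also repress, and Klf10, Klf11 and Klf13 bind the Sin3 corepressor. Klf15 lies outside these subgroups and is known for metabolic control in muscle, liver and fat. In fibroblasts several members, among them Klf2, Klf4, Klf6 and Klf10, are known as genes that respond quickly to serum or TGF-beta.

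RefSeq promoter sequences of build GRCm38.p6 were matched for 8 members, Klf5 and Klf10 having none in the table used. The 250 bases before the annotated start are shown for 3 members lower in Med1-/- cells on at least 1 probe set (Klf2, Klf4 and Klf6) and for 1 that was higher (Klf13), because factors of this family bind such sequences, also in the promoters of family genes. Capitals mark CCGCCC, a GC box core, and CACCC, each on either strand (GGGCGG and GGGTG), and the motifs can overlap.
Klf2 (chr8:72318812-72319061, plus strand): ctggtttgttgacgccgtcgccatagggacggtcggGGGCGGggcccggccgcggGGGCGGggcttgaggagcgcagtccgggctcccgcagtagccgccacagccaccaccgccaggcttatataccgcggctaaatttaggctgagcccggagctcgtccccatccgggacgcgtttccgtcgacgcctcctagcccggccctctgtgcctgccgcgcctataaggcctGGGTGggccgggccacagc
Klf4 (chr4:55532476-55532725, minus strand): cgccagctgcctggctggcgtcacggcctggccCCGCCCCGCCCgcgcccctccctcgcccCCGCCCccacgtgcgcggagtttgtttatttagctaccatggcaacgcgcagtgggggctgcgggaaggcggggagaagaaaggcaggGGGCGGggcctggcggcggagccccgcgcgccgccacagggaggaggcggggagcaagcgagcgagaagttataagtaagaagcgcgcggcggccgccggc
Klf6 (chr13:5861239-5861488, plus strand): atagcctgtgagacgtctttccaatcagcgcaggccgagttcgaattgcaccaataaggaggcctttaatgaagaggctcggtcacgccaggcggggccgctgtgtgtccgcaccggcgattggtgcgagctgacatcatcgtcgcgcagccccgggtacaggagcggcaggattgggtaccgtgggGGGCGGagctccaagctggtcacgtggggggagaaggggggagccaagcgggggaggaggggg
Klf13 (chr7:63938916-63939165, minus strand): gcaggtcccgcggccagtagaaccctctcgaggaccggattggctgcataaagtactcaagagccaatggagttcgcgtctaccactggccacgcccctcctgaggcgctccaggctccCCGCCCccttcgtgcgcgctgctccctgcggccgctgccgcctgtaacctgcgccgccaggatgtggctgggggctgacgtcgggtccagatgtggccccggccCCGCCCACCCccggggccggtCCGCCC
The GC box core was present in 8 of 8 matched member promoters, against 32.7% of 32851 promoter windows of the same length, and CACCC was present in 5 of 8 against 52.0%. The GC box core occurred 2 times in the Klf2 window, 4 times in that of Klf4, 1 time in that of Klf6 and 3 times in that of Klf13. CCAAT, searched on both strands and not marked, occurred 4 times in the Klf6 window and 2 times in that of Klf13, but in neither the Klf2 nor the Klf4 window, and 33.8% of all windows held it. The member windows were 59.2% to 78.4% G and C, against a median of 52.4%. The motif is thus found in members that were higher and in members that were lower, and a match describes letters only, not a bound site.

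The arrays differed in scale, the 75th percentile of deposited intensity being 193.3 to 281.3 in Med1-/- and 362.1 to 507.6 in Med1+/+ cells, and all values below are quantile normalized unless named as deposited. Med1 itself, on its brightest probe set, had deposited intensities of 25.4 and 40.2 in Med1-/- against 664.6 and 885.6 in Med1+/+ cells. Fibroblast markers were measured above the filter for 12 of 13 genes, Lum being the exception. Quantile normalization put the median log2 change of all probe sets at 0.04. Setting the array medians equal put it at 0.22, setting the 75th percentiles equal at 0.04, leaving the values as deposited at -0.83, scaling on hybridisation controls at -0.85 and scaling on Bacillus subtilis controls at -1.68. Each change is therefore read relative to the rest of the array.

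Among the Kruppel-like factors, Klf6 fell by more than 3-fold in Med1-/- cells on all 3 of its probe sets. Klf5 rose by more than 3-fold on the brighter of its 2 probe sets. Both changes are relative to the rest of the array, and the other tested probe sets changed by less than 2-fold or were not called. Of the 18 tested probe sets, 12 were called at an adjusted p under 0.05 (66.7%), against 71.6% of all 13576 probe sets tested by limma with Benjamini-Hochberg adjustment. Of these 8 were lower and 4 higher, against 35.3% and 36.3% of all probe sets. A change of at least 2-fold was called for 4 of 18, against 39.0% of all. These were the 3 of Klf6, which were lower (19.3% of all), and 1 of Klf5, which was higher (19.7% of all). The median absolute log2 change was 0.51 in the family and 0.817 over all probe sets, and 6 of the 18 lay above the latter. The values of the genotypes did not overlap for 17 of 18 probe sets, against 86.6% of all. Most of the family thus moved by no more than the typical gene in this comparison. The count of lower probe sets was 5 without Med1+/+ replicate 2 and 5 without Med1-/- replicate 1. In RNA from a whole culture, fewer cells that express a gene and less RNA per cell cannot be told apart.

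**Figure D1:**
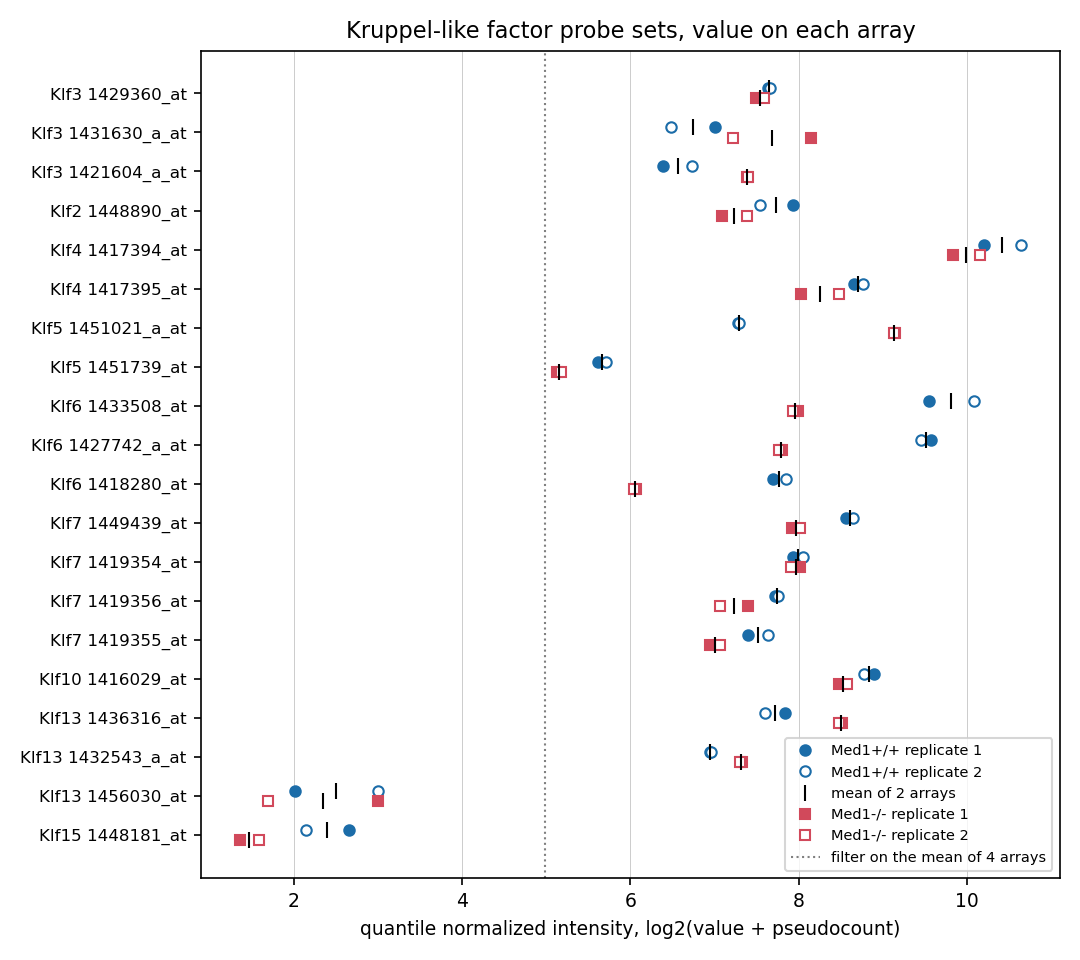
Quantile normalized log2(intensity + 1.7) of the 20 Kruppel-like factor probe sets on each of the 4 arrays, circles for Med1+/+ and squares for Med1-/-, filled for replicate 1 and open for replicate 2, with a black bar at the mean of 2 arrays. The 3 Klf6 probe sets lie lower and the upper Klf5 probe set higher in Med1-/- cells, and Klf15 and the last Klf13 probe set lie left of the dotted filter line at 4.98.

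**Figure D2:**
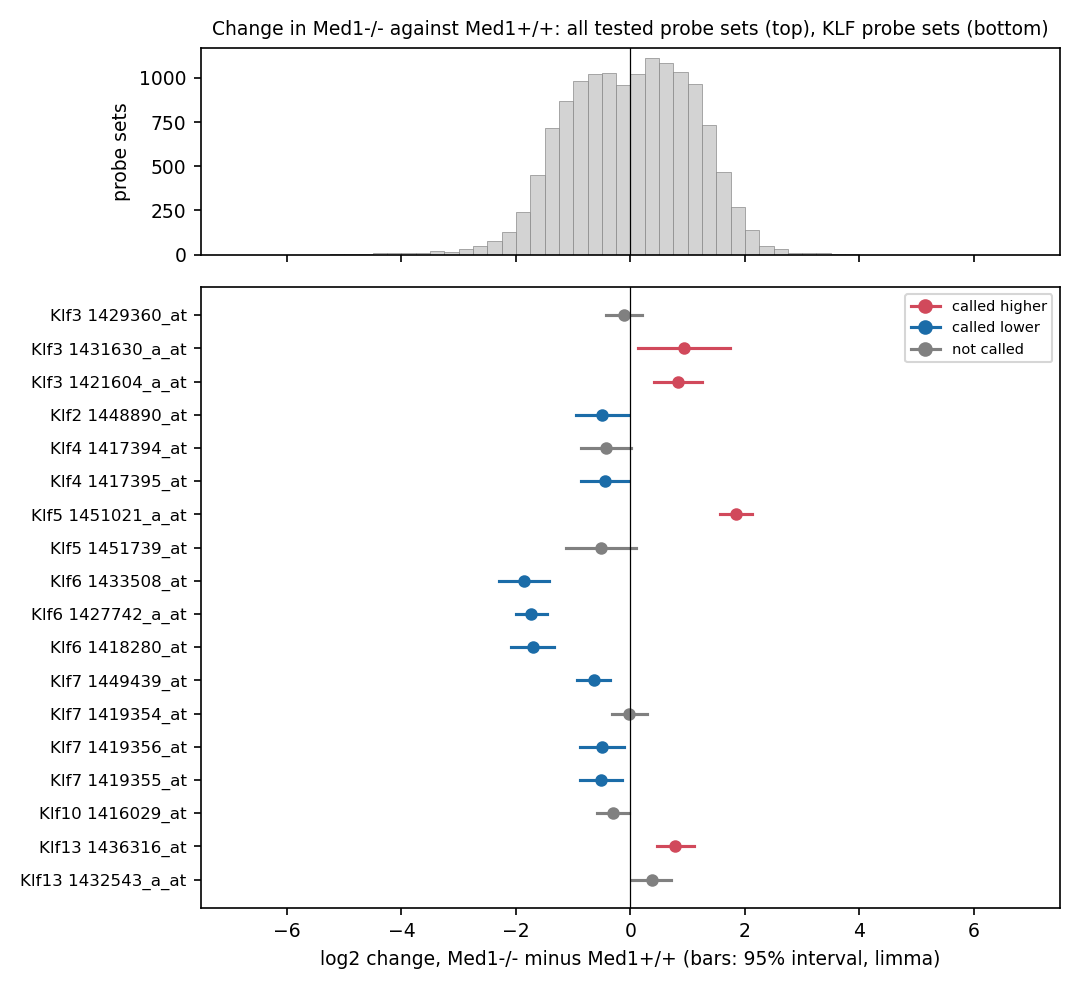
The lower panel plots the log2 change, Med1-/- minus Med1+/+, with its 95% interval for the 18 tested probe sets, and the upper panel the number of all 13576 tested probe sets in bins of log2 change. The Klf6 probe sets, at -1.86 to -1.71, and the Klf5 probe set at 1.85 lie away from the centre of the distribution, well inside its edges, and the others nearer its centre.

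Klf6, a zinc finger activator of TGF-beta pathway genes, collagen and the growth inhibitor Cdkn1a, was lower on all 3 of its probe sets. On the brightest, 1433508_at, the normalized log2 values were 9.55 and 10.08 in Med1+/+ against 7.99 and 7.93 in Med1-/- cells. Both Med1-/- arrays lay below both Med1+/+ arrays by more than the replicates differed (0.53 and 0.06). The log2 change was -1.86 (SE 0.18, n = 2 per genotype; 95% interval -2.30 to -1.42; adjusted p = 0.000242, limma), a 3.62-fold difference. The probe sets 1427742_a_at and 1418280_at changed by -1.73 (SE 0.11; adjusted p = 9.21e-05, limma) and -1.71 (SE 0.16; adjusted p = 0.000186, limma). The 3 probe sets thus differed by 0.14 in log2 change, and no alternative setting tried removed a call at any of them. Of all tested probe sets, 6.36% had a larger absolute change than the brightest of Klf6. Its deposited intensities were 789.6 and 1575.1 in wild-type Med1 cells and 142.2 and 195.1 without Med1.

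Klf5, an activator known in proliferating epithelium, smooth muscle and early fat cell development, was higher on the brighter of its 2 probe sets. The normalized log2 values of 1451021_a_at were 7.28 and 7.29 in Med1+/+ against 9.14 and 9.13 in Med1-/- cells. The replicates differed by 0.01 in each genotype, and the genotypes did not overlap. The log2 change was 1.85 (SE 0.12, n = 2 per genotype; 95% interval 1.57 to 2.13; adjusted p = 8.61e-05, limma), a 3.61-fold difference. Its deposited intensities, 170.4 and 240.2 in Med1+/+ against 332.1 and 473.8 in Med1-/- cells, were higher in Med1-/- cells even though those arrays were dimmer as a whole. The call was lost in the values as deposited (log2 change 0.97, adjusted p = 0.079, limma) and after scaling on the Bacillus subtilis controls (0.11, adjusted p = 0.447), with adjusted p from 1.07e-13 to 0.447 over 16 alternatives.

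The other Klf5 probe set, 1451739_at, did not follow. Its normalized log2 values were 5.62 and 5.71 in Med1+/+ against 5.13 and 5.17 in Med1-/- cells, a change of -0.51 (SE 0.25; 95% interval -1.12 to 0.09; adjusted p = 0.108, limma). It was called lower in 5 of 14 alternatives, among them equal 75th percentiles (-0.66, adjusted p = 0.0472, limma). The 5 also included the values as deposited and both control scalings, where the median of all probe sets was itself negative. Relative to the median of all probe sets the change of 1451739_at was -0.70 to -0.55 under the 6 scalings, opposite in sign to that of 1451021_a_at. The 2 probe sets are annotated to the same gene, and 1451739_at was close to the filter, at the 43.4th percentile of all probe sets on average. The deposited intensity of 1451021_a_at divided by that of 1451739_at was 3.22 and 2.98 in Med1+/+ against 18.0 and 17.9 in Med1-/- cells. A ratio within an array is free of the scaling between arrays, so the 2 probe sets changed unequally whatever the scale. The annotation lists a target accession for 1451739_at but none for 1451021_a_at, the probe set that rose. Which transcripts of the gene each probe set detects is not given in these sources.

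The ratio of Klf5 (1451021_a_at) to Klf6 (1433508_at) in deposited intensity, chosen after the values were seen, was 0.216 and 0.152 in Med1+/+ against 2.34 and 2.43 in Med1-/- cells. The difference was 3.71 on the log2 scale. The corresponding ratio of Klf13 (1436316_at) to Klf6 was 0.316 and 0.190 in Med1+/+ against 1.50 and 1.53 in Med1-/- cells. For Klf4 (1417394_at) to Klf6 it was 1.54 and 1.46 against 3.83 and 5.21. Klf6 therefore fell relative to each of these family genes on the same arrays, and the genotypes did not overlap in any of these ratios. All of these ratios were chosen after the values were seen, with the member that fell most as denominator. They restate the fall of Klf6 free of scaling and give no separate evidence for it. The ratio of Klf2 (1448890_at) to Klf4 was 0.218 and 0.125 in Med1+/+ against 0.134 and 0.128 in Med1-/- cells, and there the genotypes overlapped.

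**Figure D3:**
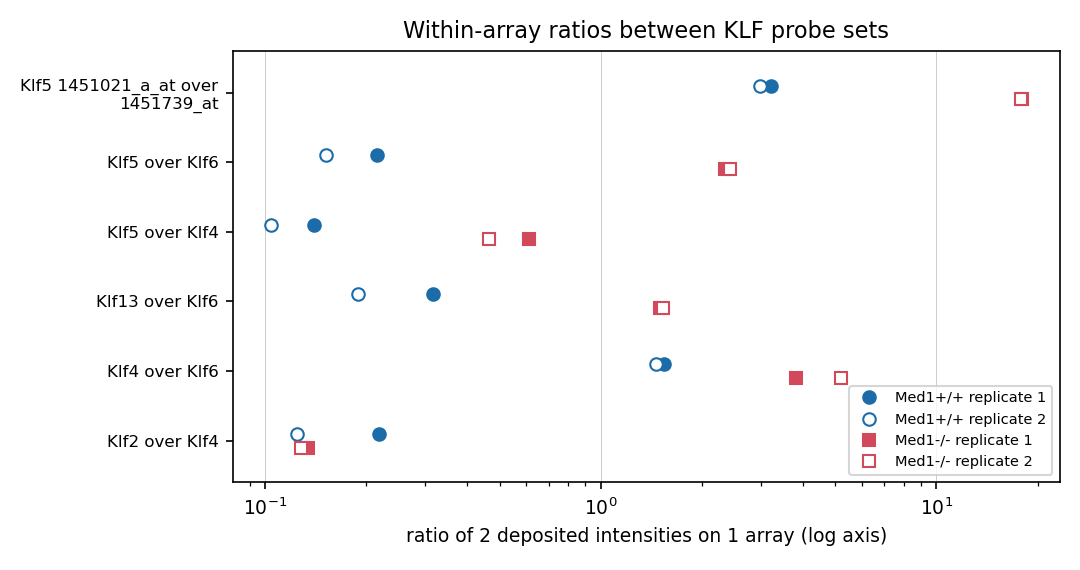
Ratio of 2 deposited intensities on the same array for 6 pairs of Kruppel-like factor probe sets, on a log axis, with circles for the 2 Med1+/+ and squares for the 2 Med1-/- arrays. The ratio of Klf5 to Klf6 is 0.152 to 0.216 in Med1+/+ against 2.34 to 2.43 in Med1-/- cells, whereas the ratio of Klf2 to Klf4 overlaps.

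Klf2 and Klf4, closely related factors that restrain inflammation in vessels and, for Klf4, drive epithelial differentiation and support pluripotency, were slightly lower. The Klf2 probe set 1448890_at had normalized log2 values of 7.93 and 7.54 in Med1+/+ against 7.09 and 7.38 in Med1-/- cells. The gap between the nearest arrays of the 2 genotypes was smaller than the differences between replicates (0.38 and 0.30). The log2 change was -0.50 (SE 0.19; 95% interval -0.95 to -0.05; adjusted p = 0.0494, limma), a 1.41-fold difference just past the threshold. It was not called at equal medians (-0.43, adjusted p = 0.0805, limma) or with no filter (adjusted p = 0.0821). Nor was it called with a filter at the 60th percentile (adjusted p = 0.0515, limma) or with no intensity trend (adjusted p = 0.0675). Without Med1+/+ replicate 1 it was -0.31 (adjusted p = 0.272, limma) and without Med1-/- replicate 1 -0.35 (adjusted p = 0.176), with adjusted p from 1.08e-05 to 0.272 over 16 alternatives.

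Klf4 was measured by 2 probe sets annotated to the same target accession. The brighter, 1417394_at, had normalized log2 values of 10.20 and 10.64 in Med1+/+ against 9.83 and 10.16 in Med1-/- cells, and its change of -0.42 (SE 0.18; 95% interval -0.86 to 0.01; adjusted p = 0.0715, limma) was not called. The dimmer, 1417395_at, had values of 8.66 and 8.76 against 8.03 and 8.48, and its change of -0.45 (SE 0.17; adjusted p = 0.0497, limma) was. The 2 probe sets differed by 0.03 in log2 change, so they measured nearly the same difference and fell on either side of the threshold. Leaving out 1 array moved both across it: 1417394_at was called without Med1+/+ replicate 1 (-0.65, adjusted p = 0.0232, limma) and without Med1-/- replicate 2 (-0.58, adjusted p = 0.0378). The call of 1417395_at was lost without Med1+/+ replicate 1 (-0.51, adjusted p = 0.105, limma), Med1+/+ replicate 2 (-0.42, adjusted p = 0.171) or Med1-/- replicate 1 (-0.23, adjusted p = 0.215). The call of 1417395_at was also lost at equal medians (-0.27, adjusted p = 0.218, limma) and at equal 75th percentiles (adjusted p = 0.0529). The same held with no filter (adjusted p = 0.0736, limma) and with no intensity trend (adjusted p = 0.0808). At equal medians the change of 1417394_at shrank to -0.10. With the replicate number as a block the change of 1417394_at was called (adjusted p = 4.32e-05, limma). Over all alternatives the adjusted p ran from 2.21e-05 to 0.643 for 1417394_at and from 9.42e-06 to 0.218 for 1417395_at.

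Klf7, an activator best known in developing neurons, was lower on 3 of its 4 probe sets, by less than 2-fold. The brightest, 1449439_at, had normalized log2 values of 8.56 and 8.65 in Med1+/+ against 7.92 and 8.02 in Med1-/- cells, a change of -0.64 (SE 0.12; 95% interval -0.93 to -0.35; adjusted p = 0.00322, limma). The genotypes lay further apart than the replicates, which differed by 0.09 in each, and this call was kept under all 16 alternatives. The probe sets 1419356_at and 1419355_at changed by -0.50 (SE 0.16; adjusted p = 0.0273, limma) and -0.51 (SE 0.16; adjusted p = 0.0238, limma). The fourth, 1419354_at, had overlapping values, 7.93 and 8.05 in Med1+/+ against 8.02 and 7.91 in Med1-/- cells, with a change of -0.02 (95% interval -0.33 to 0.29; adjusted p = 0.89, limma). The annotation lists the same target accession for all 4 Klf7 probe sets, so they are not independent measurements. At equal medians 1419356_at was not called (-0.43, adjusted p = 0.0512, limma). The call of 1419356_at was lost without Med1+/+ replicate 1 (-0.53, adjusted p = 0.0899, limma), Med1+/+ replicate 2 (-0.49, adjusted p = 0.111) or Med1-/- replicate 2 (-0.34, adjusted p = 0.106), and that of 1419355_at without Med1+/+ replicate 2 (-0.40, adjusted p = 0.166) or Med1-/- replicate 1 (-0.45, adjusted p = 0.0727). Their adjusted p ran from 1.29e-05 to 0.111 and from 7.49e-06 to 0.166 over 15 alternatives each.

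Klf3, the CtBP-binding repressor, gave different values on its 3 probe sets. The brightest, 1429360_at, had normalized log2 values of 7.63 and 7.66 in Med1+/+ against 7.49 and 7.59 in Med1-/- cells, with a change of -0.11 (SE 0.13; 95% interval -0.42 to 0.21; adjusted p = 0.488, limma). On 1421604_a_at the values were 6.39 and 6.73 against 7.38 and 7.40, a rise of 0.83 (SE 0.17; 95% interval 0.41 to 1.25; adjusted p = 0.00531, limma). On 1431630_a_at they were 7.01 and 6.48 against 8.15 and 7.22, a rise of 0.94 (SE 0.33; adjusted p = 0.0403, limma) with replicates that differed by 0.53 and 0.94. The deposited ratio of 1421604_a_at to 1429360_at was 0.428 and 0.529 in Med1+/+ against 0.930 and 0.871 in Med1-/- cells, so these probe sets changed unequally within the arrays. Both rises turned negative in the deposited values and under both control scalings, while relative to the median of all probe sets they stayed positive under the 6 scalings (0.65 to 0.90). The rise of 1431630_a_at was not called at equal 75th percentiles (0.83, adjusted p = 0.0695, limma). Nor was it called with no filter (adjusted p = 0.0718, limma) or with no intensity trend (adjusted p = 0.0691). The call of 1431630_a_at was lost without Med1+/+ replicate 2 (0.69, adjusted p = 0.167, limma) or Med1-/- replicate 1 (0.47, adjusted p = 0.152), with adjusted p from 9.34e-06 to 0.961 over 15 alternatives.

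Of the Sin3-binding repressors, Klf13 was higher on 1 of its 2 tested probe sets and Klf10 was not called. Klf13, known as a regulator of the chemokine gene Ccl5 in T cells, had normalized log2 values on 1436316_at of 7.84 and 7.60 in Med1+/+ against 8.52 and 8.48 in Med1-/- cells. The change was 0.78 (SE 0.13; 95% interval 0.46 to 1.11; adjusted p = 0.00226, limma), a 1.72-fold difference, and both Med1-/- arrays lay above both Med1+/+ arrays. On 1432543_a_at the values were 6.94 and 6.96 against 7.33 and 7.30, without overlap, and the change of 0.37 (SE 0.14; 95% interval 0.03 to 0.71; adjusted p = 0.0535, limma) was not called. The deposited intensities of 1436316_at, 249.6 and 299.4 against 212.6 and 298.0, overlapped, and both changes turned negative as deposited and under the control scalings. Relative to all probe sets the change of 1436316_at was 0.71 to 0.74 under the 6 scalings.

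Klf10, an early TGF-beta response gene, had normalized log2 values on 1416029_at of 8.89 and 8.78 in Med1+/+ against 8.48 and 8.58 in Med1-/- cells. The genotypes did not overlap, and the change of -0.31 (SE 0.12; 95% interval -0.59 to -0.03; adjusted p = 0.051, limma) lay just outside the threshold. It was called in 6 of 16 alternatives, among them the replicate block (adjusted p = 0.0139, limma) and only the brightest probe set of each gene (adjusted p = 0.0443). The 6 also included the values as deposited and both control scalings, where the median of all probe sets was itself negative. Relative to that median the change of Klf10 was -0.33 in each of these. The adjusted p ran from 3.09e-06 to 0.462 over the 16. Klf15 was dim on all arrays on its probe set 1448181_at, with deposited intensities of 4.9 and 3.9 in Med1+/+ against 0.6 and 1.2 in Med1-/- cells, and was not tested. The dim Klf13 probe set 1456030_at had deposited intensities of 2.4 and 9.2 against 3.9 and 1.4, which overlapped. The mean log2 values of these 2 probe sets lay under the filter at 4.98.

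Scaling shifted all members together. On the brightest tested probe set of each gene, the change relative to the median of all probe sets ran over the 6 scalings from 1.79 to 1.81 for Klf5, -1.90 to -1.89 for Klf6, -0.71 to -0.68 for Klf7, -0.66 to -0.54 for Klf2, -0.46 to -0.33 for Klf4, -0.34 to -0.32 for Klf10 and -0.25 to -0.14 for Klf3. The order of Klf5 above and Klf6 below the other members on these probe sets was thus kept, while the sign of Klf3 and Klf13 rises depended on the scale. Scaling on the hybridisation controls called 1 of the 18 probe sets higher and 14 lower, and the values as deposited 0 higher and 12 lower.

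**Figure D4:**
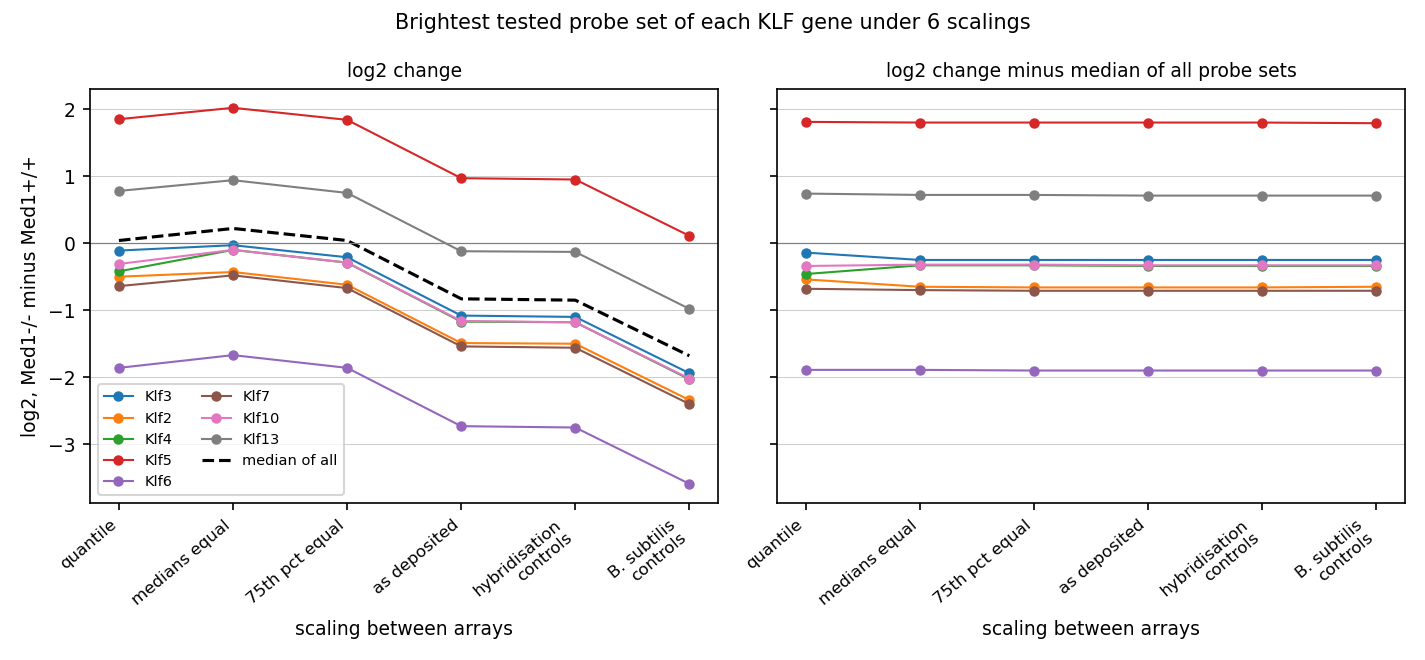
Log2 change, Med1-/- minus Med1+/+, of the brightest tested probe set of 8 Kruppel-like factor genes under 6 scalings between arrays, as computed (left, with the median of all probe sets dashed) and after subtracting that median (right). On the left every line drops with the median, from 0.04 after quantile normalization to -1.68 on the Bacillus subtilis controls, and on the right the lines are nearly level.

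Related genes were read on the brightest probe set of each gene, for which 74.9% of 7874 genes were called, 39.5% higher and 35.4% lower, with a median log2 change of 0.12. Klf9 was not analysed here. Of 7 further Kruppel-like factors listed, 4 had a probe set, and of these Klf16, a Sin3-binding repressor, was above the filter and Klf1, Klf12 and Klf17 were below it. Klf16 rose by 2.20 (SE 0.14; adjusted p = 8.61e-05, limma), from deposited intensities of 184.0 and 310.9 to 524.4 and 707.8, and was called higher under all 6 scalings. The Sp factors bind the same GC-rich sequences. Sp1 (-0.80, SE 0.12; adjusted p = 0.00104, limma) and Sp3 (-1.01, SE 0.14; adjusted p = 0.000936, limma) were lower, and the osteoblast factor Sp7 was not called (0.85, SE 0.41; adjusted p = 0.102, limma). The median log2 change of these 3 was -0.80 and stayed negative under the 6 scalings.

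Genes for cofactors of the family moved both ways, with 5 of 11 higher, 5 lower and a median log2 change of -0.35, negative under the 6 scalings. The counts higher and lower were 5 and 1 at equal medians, 5 and 4 at equal 75th percentiles, 0 and 6 as deposited, 1 and 7 scaled on hybridisation controls and 0 and 11 scaled on Bacillus subtilis controls. Ctbp1, a gene for CtBP, the corepressor recruited by Klf3, rose by 0.98, whereas Ctbp2, named after its value was seen, was lower (-0.49). The acetyltransferase gene Crebbp rose by 0.86, the chromatin adaptor gene Wdr5 rose by 0.69, and the acetyltransferase gene Kat2b fell by 0.79. Of 6 tested genes of the ubiquitin ligase list, 3 were lower and 1 higher, with a median of -0.75 that stayed negative under the 6 scalings. Wwp1, a ligase known to target Klf2 and Klf5, fell by 1.38, the ligase gene Itch fell by 1.27 and Fbxo32 fell by 2.26, and Btrc rose by 1.04, although 0 of the 6 were called higher as deposited or under either control scaling. Of the genes of the ERK5 and MEF2 route, which induces Klf2 and Klf4 in endothelium, Mapk7, the gene for ERK5, rose by 1.22, its kinase gene Map2k5 by 0.85, Map3k3 by 0.56 and Mef2d by 1.23, whereas Mef2a fell by 1.27. Their median was 0.85 and turned negative as deposited and under the control scalings, where 0 of the 5 were called higher. Adjusted p for the genes named here lay under 0.05 (limma).

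Of 28 tested genes among published targets of the family, 16 were higher and 6 lower, against 39.5% and 35.4% of all genes. Their median was 0.69, against 0.12 for all genes. The balance turned with the scale: 3 were higher and 10 lower as deposited, 6 and 12 scaled on hybridisation controls and 2 and 21 scaled on Bacillus subtilis controls. The median was -0.26 as deposited, and relative to all probe sets it was 0.57 to 0.66 under the 6 scalings. The cell cycle inhibitor gene Cdkn1a (2.58) and the collagen gene Col1a1 (1.98) had the largest rises, and the chemokine gene Ccl5 (-2.30) and the growth cone gene Gap43 (-1.79) the largest falls. The list mixes targets of activators and of repressors from different cell types and has no single predicted direction. In these p53-deficient cells Cdkn1a rose while Klf6 fell, and Ccl5 fell while Klf13 was higher after quantile normalization. These pairs were picked with the values known, and other listed genes moved with a factor. Of Tgfb1, Tgfbr1 and Tgfbr2, Tgfbr1 fell by 1.25, as Klf6 did, Tgfb1 rose by 1.37 and Tgfbr2 was not called. Whether any of these genes responded to a Kruppel-like factor was not tested.

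**Figure D5:**
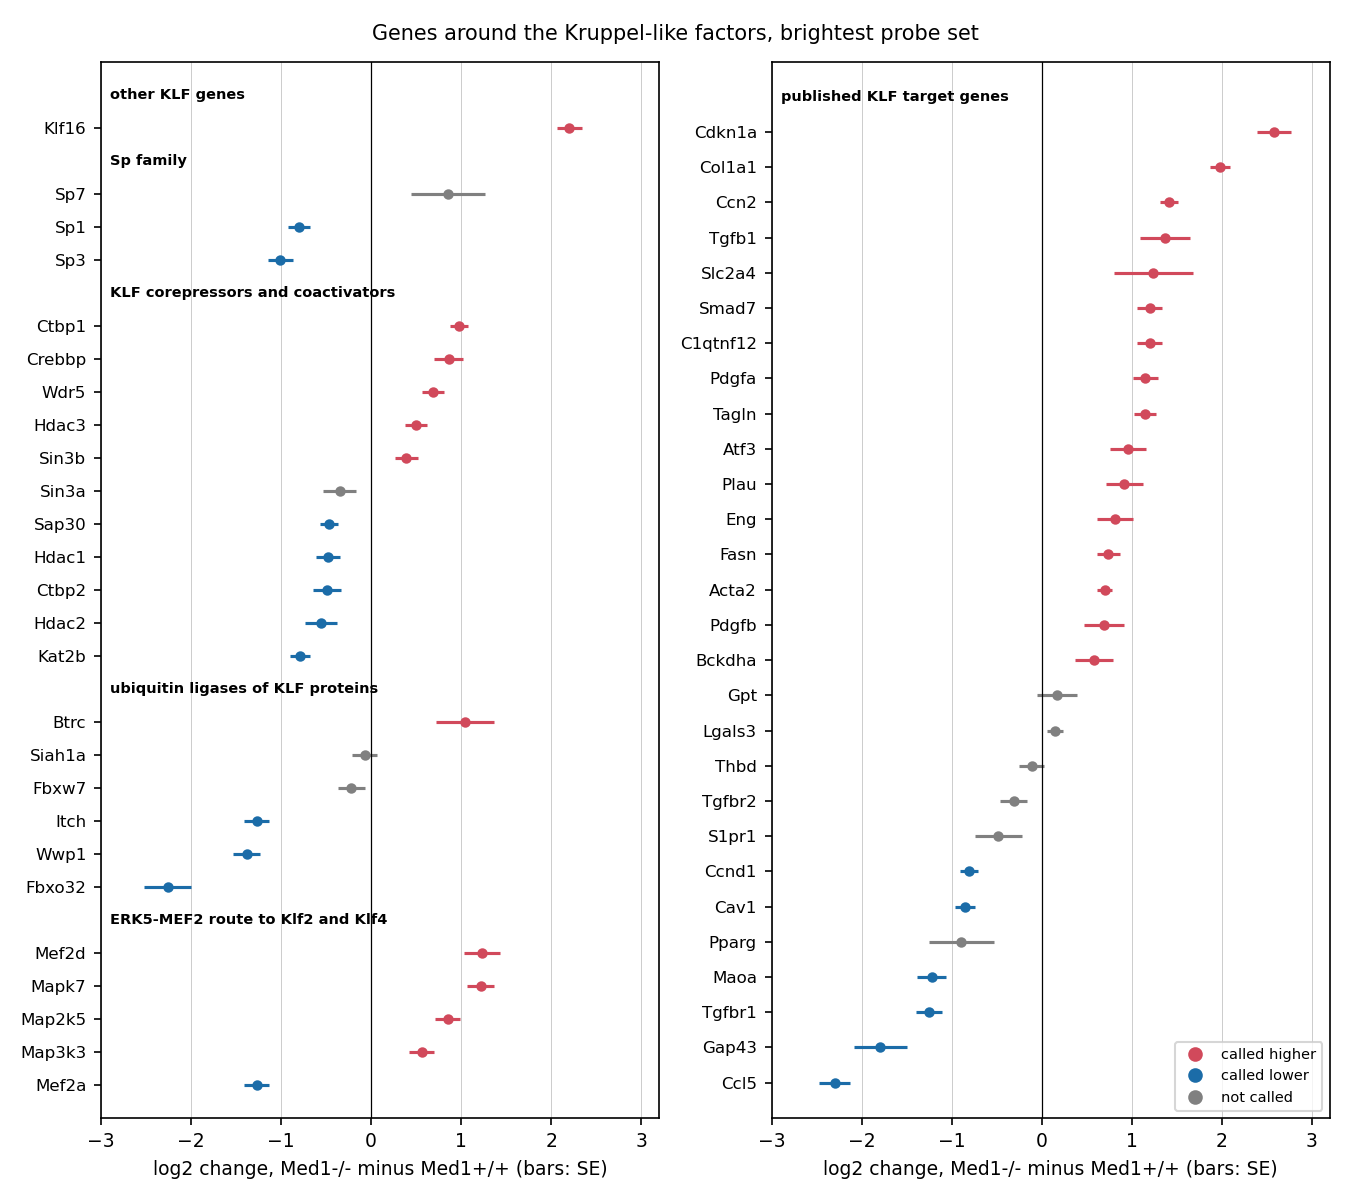
Log2 change, Med1-/- minus Med1+/+, with its SE for the brightest tested probe set of genes related to the Kruppel-like factors, red where called higher, blue where called lower and grey where not called. Klf16 lies at 2.20, Sp1 and Sp3 at -0.80 and -1.01, and 16 of the 28 published targets on the right are called higher after quantile normalization, against 3 in the values as deposited.

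Markers of other cell types in which these factors are prominent differed from list to list. Of 7 tested epithelial markers among 10 listed, 5 were lower, with the largest falls in Cdh1 (-4.50), Krt18 (-4.45), Dsg2 (-4.39) and Dsp (-3.92), and 1, Krt19 (1.61), named after its value was seen, was higher. The summed normalized intensity of the 10 epithelial markers was 5099 and 5254 in Med1+/+ against 2399 and 2759 in Med1-/- cells, and Epcam was near 0, with deposited intensities of 1.4 to 4.4. All 7 tested smooth muscle markers of 9 were higher, among them Actg2 (5.39), Cnn1 (4.09), Des (3.78) and Smtn (2.40). As deposited, 6 of these passed the filter and 4 were called higher. The summed intensity of the 9 was 14146 and 13749 in Med1+/+ against 31732 and 29881 in Med1-/- cells. The part of either marker group in the values of Klf4, Klf5 and Klf6 was not tested. Endothelial markers had 3 of 10 above the filter, with Egfl7 (1.86) higher, Flt1 (-0.75) lower and Kdr (0.28, adjusted p = 0.538, limma) not called, while Pecam1 and Cdh5 were below it. Of 8 blood cell markers 1 was above the filter, Laptm5, which was not called (0.74, adjusted p = 0.144, limma), and Ptprc had deposited intensities of 0.1 to 7.2. Of 7 adipocyte markers with a probe set 1 was, Pparg, which was not called (-0.89, adjusted p = 0.0615, limma). Fibroblast markers had 4 higher and 4 lower of 12, with Dcn (-1.99), S100a4 (-2.68), Prrx1 (-2.89) and Pdgfra (-2.95) lower and, named after their values were seen, Col1a1 (1.98), Thy1 (1.34), Twist1 (1.23) and Col3a1 (1.11) higher. The counts higher and lower were 7 and 4 at equal medians, 6 and 4 at equal 75th percentiles, 1 and 5 as deposited, 4 and 6 scaled on hybridisation controls and 1 and 9 scaled on Bacillus subtilis controls.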

How the data were processed

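Med1-/- p53-/- and Med1+/+ p53-/- fibroblasts were compared over 2 arrays each, grouped by their titles. The authors deposited 1 linear intensity per probe set and array. Their probe summary, background correction and scaling are not given in these sources, and no detection calls were used. Since 75th percentiles differed by 2.63-fold, arrays were quantile normalized without the 64 control probe sets, and taken as log2(value + 1.7), the 10th percentile of the table, which understates changes of dim genes. A filter at the 40th percentile of the mean removed 9050 probe sets. The other 13576 were tested in limma (version 3.58.1, R 4.3.3) by lmFit and eBayes, two-sided, with a trend of variance on intensity, Benjamini-Hochberg adjustment and a threshold of 0.05. Residual degrees of freedom were 2. All probe sets were fitted, not 1 per gene, because the members are probe sets. An exact permutation test of 2 against 2 arrays cannot go below p = 0.333. Gene symbols of the platform's annotation were brought up to date by Entrez identifier with RefSeq's table of GRCm38.p6, and 20380 probe sets had 1 symbol. The steps after normalization were tried on simulated data with few changed probe sets. As most probe sets were called here, that trial does not show how the calls behave in these data.

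All members and all of their probe sets are named. Of each list of related genes all tested genes are named where there were 5 or fewer, and otherwise up to 4 called genes with the largest absolute change. The members and lists were chosen with earlier results of these data known. Alternatives varied the scaling, filter, pseudocount (1 and 16), probe sets fitted, variance model, replicate block and arrays left out. Same-numbered arrays deviated together from their group means (r = 0.297 across probe sets), but with only 2 numbers, and no label tying them, they were not treated as pairs. Python 3.11.15 with matplotlib 3.10.9 drew the figures.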

Additional observations from a re-analysis of the deposited data

How the results depend on the processing

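The numbers of member probe sets called higher and lower depended on the scaling. They were 4 and 8 after quantile normalization, 5 and 5 at equal medians, 3 and 8 at equal 75th percentiles, 0 and 12 as deposited (where 6298 of all probe sets were called, against 9718), 1 and 14 scaled on hybridisation controls and 0 and 17 scaled on Bacillus subtilis controls. With only the brightest probe set of each gene fitted, 2 were higher and 4 lower of 8. The main fit called 2 higher and 3 lower of these 8, and the call of Klf10 was added (adjusted p = 0.0443, limma). Leaving out 1 array gave 3 to 4 higher, 5 to 8 lower and 8110 to 9362 of all; the lone array of a genotype is then assumed to vary like the other genotype. The replicate block gave 5 higher, 10 lower and 10808 of all, and added the calls of Klf4 1417394_at, Klf10 and Klf13 1432543_a_at (adjusted p = 0.0441, limma), removing none.

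As deposited, scaled on hybridisation controls and scaled on Bacillus subtilis controls, in this order, the log2 change turned to -0.12, -0.13 and -0.98 for Klf13 1436316_at, -0.63, -0.64 and -1.48 for Klf13 1432543_a_at, -0.17, -0.19 and -1.02 for Klf3 1421604_a_at and -0.03, -0.05 and -0.88 for Klf3 1431630_a_at. Klf7 1419354_at turned to 0.11 with medians set equal, 0.04 without Med1+/+ replicate 2 and 0.03 without Med1-/- replicate 2, within a range of -0.08 to 0.04 over the arrays left out. The cause was not tested. The 3 Klf6 probe sets and Klf7 1449439_at kept direction and call under every alternative that tested them. With 4 arrays, the number of arrays limits the precision, and the calls of Klf2 and Klf4 lay at the threshold.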
